A study of Mus musculus with 12 samples.

Results

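Embelin was compared with its solvent DMSO after 48 h of muscle differentiation in C2C12 cells. Embelin is a benzoquinone from plants, named in the series title as a PCAF inhibitor, and it is known to act on the caspase inhibitor XIAP too. C2C12 is a cloned mouse myoblast line. The groups were taken from the labels: 2 arrays of cells kept for 48 h with 10 uM embelin in medium with 2% horse serum, and 2 arrays of cells kept for the same time with DMSO in that medium. These are 4 of the 12 arrays of the series, an Illumina mouse whole-genome bead array set. Embelin and DMSO cells at 24 h in the same medium (2 arrays each) were used to compare the effects at both times. The 4 arrays in growth medium with 20% fetal bovine serum entered no comparison given here. They did enter the normalization, the detection filters, the choice of probe and the shared estimate of spread. The labels name no genetic change in any group. Whether the numbered replicates were grown apart is not in the labels. The p-values therefore reflect how far these samples lay apart, and that spread may be technical.

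When serum is lowered, myoblasts leave the cell cycle, switch on Myog and the MEF2 factors, fuse into myotubes and then build up contractile, calcium-handling and energy-supplying proteins. PCAF, encoded by Kat2b, is known as a coactivator that acetylates the myogenic factor MyoD and the tumour suppressor p53. Cultures of C2C12 myotubes also hold mononucleated cells, and all RNA was pooled per culture, so that fewer cells of a type and less RNA per cell cannot be told apart.

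The 4 arrays at 48 h each had between 15493 and 16314 of 45281 probes above background at a detection p under 0.01. The root mean square SD between the arrays of a group was 0.151 log2 units with embelin and 0.176 with DMSO. All 9 myotube markers checked were detected on the 4 arrays, and their summed signal was 76267 and 70914 with embelin, against 111038 and 107729 with DMSO. Signals were summed unlogged, so that the brightest markers, Mylpf and Myh3, weigh most. Neither passed the test for single genes given below. Of the same markers, Myog and Mymk overlapped between the groups. The markers of myoblasts and reserve cells summed to 798 and 770 with embelin, against 1531 and 1616 with DMSO. Pax7, Myf5 and Cd34 of that list were not detected on any of the 4 arrays. The sum thus rests on the Notch-pathway genes Hey1, Heyl and Notch3. Of these, Hey1 and Heyl were lower with embelin. Notch3 was higher, with 8.86 and 8.84 with embelin, against 8.77 and 8.60 with DMSO. Of the other cell types, 0 of 5 endothelial, 1 of 7 adipocyte, 1 of 6 bone or cartilage, 2 of 7 leukocyte and 2 of 5 fibroblast markers were detected on any array at 48 h. The defining leukocyte markers Ptprc, Adgre1, Cd68, Tyrobp and Lyz2 were not detected, while Cd14 was on all 4 arrays. The leukocyte sum was 294 and 294 with embelin, against 224 and 195 with DMSO. The fibroblast sum was 395 and 419 with embelin, against 455 and 461 with DMSO. In it Pdgfra was higher with embelin (7.45 and 7.59, against 7.23 and 7.27 with DMSO). Pdgfrb was lower (7.27 and 7.33, against 7.91 and 7.93 with DMSO). What part the differences in the myotube, reserve-cell, leukocyte and fibroblast sums have in the results was not tested. The adipocyte sum lay between 178 and 192 and the bone and cartilage sum between 170 and 186 over the 4 arrays.

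Of 11452 genes tested, 2264 (19.8%) were higher and 2280 (19.9%) lower with embelin than with DMSO at 48 h, which is 39.7% in either direction, at a Benjamini-Hochberg adjusted p under 0.05 in limma. Among them, 455 were higher and 550 lower by at least 1 log2 unit, and 76 and 100 by at least 2. Both embelin arrays lay above both DMSO arrays in 35.9% of all genes and below them in 36.3%, and all 4544 called genes were separated in this way. The median change over all genes was -0.0015 log2 units. Scaling each array by its median instead of by quantiles gave 2379 higher and 1460 lower, so that higher genes were 62% of those called instead of 49.8%, with a median change over all genes of 0.08. Without embelin replicate 2 the counts were 1466 higher and 1473 lower. The counts of the gene lists that follow stand against these shares of all genes. Collagens (10.5% higher and 15.8% lower), for instance, did not exceed them.

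The 2 arrays of a group were ordered alike across much of the response. Among the 455 genes higher by at least 1 log2 unit, DMSO replicate 1 lay above DMSO replicate 2 in 398 (87.5%), against 50.7% of all genes. Among the 550 genes lower by at least 1, embelin replicate 1 lay above embelin replicate 2 in 453 (82.4%), against 49.7% of all genes. DMSO replicate 1 and embelin replicate 1 thus lay nearer to the other treatment than replicate 2 of either group did. Whether this belongs to the cultures or to the arrays was not tested.

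**Figure D1:**
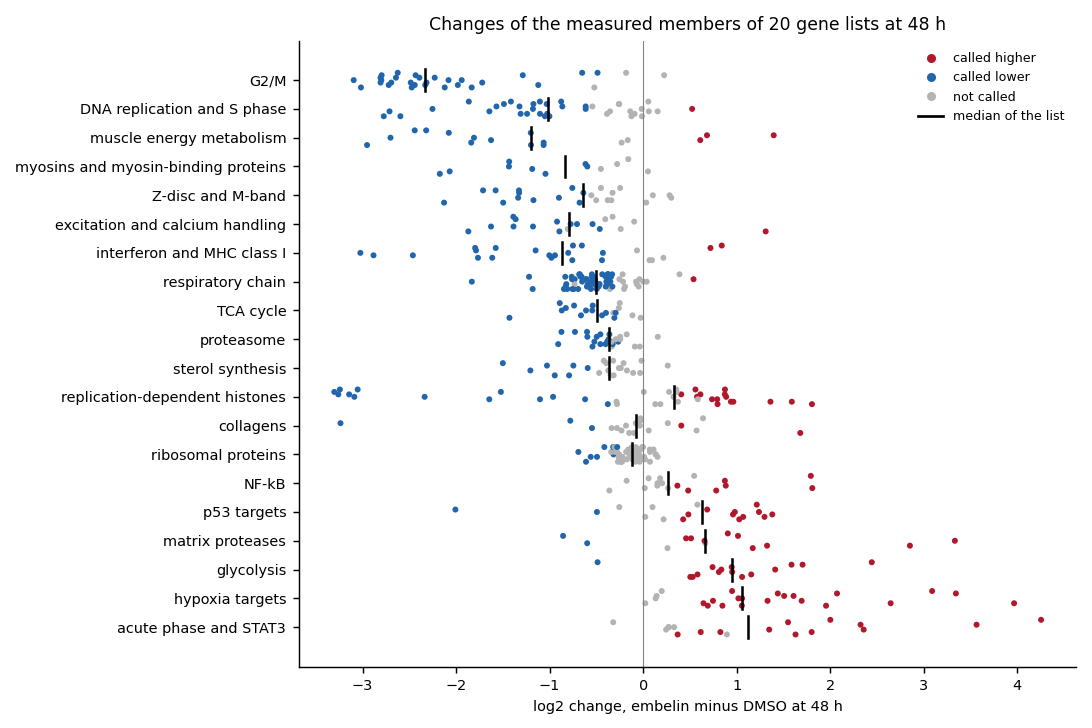
Log2 changes (embelin minus DMSO at 48 h, horizontal axis) of the measured members of 20 gene lists, 1 point per gene. Red points passed the test as higher with embelin, blue points as lower, grey points did not pass, and the black bars are list medians. G2/M genes lie furthest to the left (median -2.33), and the acute-phase (median 1.12) and hypoxia (median 1.06) lists furthest to the right.

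Of 15 myogenic regulators measured, 6 fell and none rose. Of the 8 detected on all 12 arrays, 3 fell. Myog, the factor that marks commitment, had log2 signals of 12.59 and 12.18 with embelin, against 12.46 and 12.34 with DMSO (replicates 1 and 2 in each case). The groups overlapped for this gene (log2 change -0.02, SE 0.47, adjusted p = 0.978). Myf6 (MRF4), the member of the MyoD family that acts latest, had 4.75 and 4.55 with embelin, against 6.13 and 6.25 with DMSO, was not above background with embelin, and was at least 1.78-fold lower (adjusted p = 4.58e-06). Both embelin arrays lay below both DMSO arrays. Mef2c, the muscle-enriched MEF2 factor, had 9.75 and 9.83 with embelin, against 10.85 and 11.25 with DMSO (log2 change -1.26, SE 0.21, adjusted p = 0.000928), while Mef2d stood at -0.08 and did not pass (adjusted p = 0.774). The methyltransferase gene Smyd1 (log2 change -1.09, SE 0.20, adjusted p = 0.00158), which is needed for sarcomere assembly, and the TEA-domain factor gene Tead4 (log2 change -0.87, SE 0.17, adjusted p = 0.0022) also fell. Pitx3, a homeobox factor gene, was not above background with embelin and was at least 1.8-fold lower (adjusted p = 5.95e-05).

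**Figure D2:**
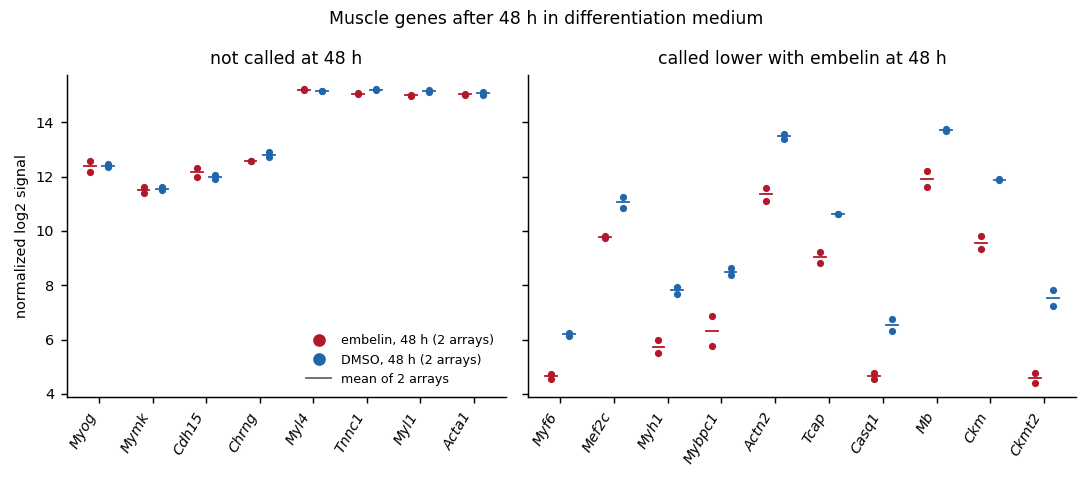
Normalized log2 signals of 18 muscle genes (chosen after their values were seen) on the 2 embelin arrays (red, left of each pair) and the 2 DMSO arrays (blue, right) at 48 h, with short lines at group means. The 8 genes on the left did not pass the test by the probe shown, the brightest of each gene. The 10 on the right were lower with embelin on both arrays.

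3 early markers of differentiation did not pass the test. Mymk (myomaker, the membrane protein that permits fusion) had 11.60 and 11.41 with embelin, against 11.50 and 11.62 with DMSO (log2 change -0.06, SE 0.44, adjusted p = 0.935). The cadherin gene Cdh15 had 12.32 and 11.998 with embelin, against 12.04 and 11.92 with DMSO (log2 change 0.18, SE 0.20, adjusted p = 0.522), and the embryonic acetylcholine receptor subunit gene Chrng had 12.58 and 12.58 with embelin, against 12.71 and 12.90 with DMSO (log2 change -0.22, SE 0.32, adjusted p = 0.618). The arrays of both groups overlapped for Mymk and Cdh15 and were apart for Chrng, lower with embelin. A dimmer Chrng probe stood at -0.34 (adjusted p = 0.0496 in limma over probes). Over the 21 fusion genes measured, 7 rose and 5 fell. The metalloprotease gene Adam12 fell (log2 change -1.56, SE 0.15, adjusted p = 2.28e-05), as did the junctional adhesion genes Jam2 (log2 change -0.96, SE 0.21, adjusted p = 0.00443) and Jam3 (log2 change -0.93, SE 0.21, adjusted p = 0.00528) and the membrane-repair gene Dysf (log2 change -0.85, SE 0.13, adjusted p = 0.000461). The N-cadherin gene Cdh2 (log2 change 0.84, SE 0.20, adjusted p = 0.00753), the integrin gene Itga3 (log2 change 1.41, SE 0.13, adjusted p = 2.28e-05) and the cell-surface receptor gene Cdon (log2 change 0.81, SE 0.21, adjusted p = 0.0105) rose. The higher count was 4 without either embelin array and 2 without DMSO replicate 2, and the lower count 3 without embelin replicate 2. The call of Jam3, detected on 1 embelin array, was lost without embelin replicate 2 (adjusted p = 0.0536). That of Cdh2, detected on 1 DMSO array, was lost without DMSO replicate 2 (adjusted p = 0.0746), and that of Cdon without embelin replicate 2 (adjusted p = 0.0552) and without DMSO replicate 2 (adjusted p = 0.0588).

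Contractile genes fell in part. Among 12 myosin and myosin-binding genes 8 fell and none rose (median -0.83, or -0.73 with genes not above background at their bound). Among 13 thin-filament genes 4 fell and 1 rose (median -0.75). Among 23 Z-disc and M-band genes 12 fell and none rose (median -0.64). Where detection on all 12 arrays was required, 0 of 4 myosin genes and 7 of 14 Z-disc and M-band genes fell. Myh1, the adult fast IIx heavy chain, had 5.999 and 5.49 with embelin, against 7.94 and 7.69 with DMSO (log2 change -2.07, SE 0.30, adjusted p = 0.000394). Both embelin arrays lay well below both DMSO arrays. The embryonic heavy chain gene Myh3 had 13.99 and 13.94 with embelin, against 14.53 and 14.30 with DMSO (log2 change -0.45). Its groups were apart too, but it did not pass (adjusted p = 0.42). The SE pools the spread of all groups, which was widest with embelin in growth medium (root mean square SD 0.235). The thin-filament count of lower genes was 9 in the fit of only the arrays compared and 2 with a trended and robust prior. Mybpc1, slow myosin-binding protein C, had 6.87 and 5.77 with embelin, against 8.36 and 8.63 with DMSO (log2 change -2.17, SE 0.31, adjusted p = 0.000322). Actn2, the Z-disc alpha-actinin, had 11.59 and 11.10 with embelin, against 13.39 and 13.56 with DMSO (log2 change -2.13, SE 0.46, adjusted p = 0.00419). Further members that fell were the Z-disc gene Tcap (-1.58), the M-band gene Myom3 (-1.33) and the light-chain kinase gene Mylk2 (-1.44), with adjusted p-values of 7.1e-05, 0.000792 and 2.88e-05. The Z-disc gene Myot and the slow light-chain gene Myl2 were not above background with embelin, and were at least 1.82-fold (adjusted p = 1.77e-06) and 1.79-fold lower (adjusted p = 0.000101). Tpm1, an alpha-tropomyosin gene that other cells use too, was the thin-filament gene that rose (log2 change 0.51, SE 0.11, adjusted p = 0.00422). The myosin count was 5 without DMSO replicate 2, the Z-disc and M-band count 7 without embelin replicate 2, and the thin-filament count 2 without embelin replicate 2 or without either DMSO array. The thin-filament count was 9 without embelin replicate 2 of the growth-medium arrays.

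The most abundant contractile transcripts sat at the top of the scale. Acta1 (skeletal actin), Myl1, Myl4, Tnnc1 and Mylpf lay on every array at most 0.40 log2 units below the highest gene signal, which was 15.37. Acta1 had 15.05 and 15.01 with embelin, against 15.01 and 15.11 with DMSO, with a log2 change of -0.03 (adjusted p = 0.949), and Mylpf had 14.97 and 14.98 with embelin, against 15.30 and 15.20 with DMSO, with -0.28 (adjusted p = 0.45). A change of such a transcript may be compressed there, so these values do not bound the change in RNA. Dimmer probes of Myl1 (-1.31, adjusted p = 0.0146) and Myl4 (-0.88, adjusted p = 0.00604) were lower with embelin in limma over probes. Another Mylpf probe, at 14.26 and 14.12 with embelin, did not pass there (-0.36, adjusted p = 0.369).

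Calcium-handling genes fell in 12 of 18, and 1 rose. Casq1, the calcium-binding store protein of fast fibres, had 4.78 and 4.54 with embelin, against 6.31 and 6.75 with DMSO, was not above background with embelin and was at least 2.25-fold lower (adjusted p = 6.82e-06). Hrc, another store protein gene, had 10.33 and 10.01 with embelin, against 11.73 and 11.86 with DMSO (log2 change -1.63, SE 0.37, adjusted p = 0.00523). Stac3, which couples the voltage sensor to the release channel, had 7.75 and 7.62 with embelin, against 9.005 and 9.14 with DMSO (log2 change -1.39, SE 0.19, adjusted p = 0.000282). All 3 were lower on both embelin arrays. The regulator gene Mrln (myoregulin) fell too (log2 change -1.36, SE 0.29, adjusted p = 0.00394), as did the slow-fibre pump gene Atp2a2 (log2 change -1.18, SE 0.13, adjusted p = 6.54e-05). Pvalb (parvalbumin), a calcium buffer of fast fibres, fell as well (log2 change -1.39, SE 0.15, adjusted p = 6.15e-05). Asph, whose locus also encodes the junctional protein junctin, rose (log2 change 1.31, SE 0.16, adjusted p = 0.000105). Without embelin replicate 2 the count of lower genes was 7, and without DMSO replicate 2 it was 6. At the neuromuscular junction 6 of 13 genes fell, led by the receptor-clustering gene Rapsn (log2 change -0.83, SE 0.12, adjusted p = 0.000425), but that count was 2 under scaling by the array median or without either embelin array, 3 without DMSO replicate 1 and 1 without DMSO replicate 2.

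Genes of muscle energy supply had the lowest median change of the muscle lists (-1.20), 12 of 17 being lower and 3 higher. Of the 11 detected on all 12 arrays, 6 were lower. Ckmt2, the mitochondrial creatine kinase of muscle, had 4.76 and 4.42 with embelin, against 7.25 and 7.84 with DMSO and was not above background with embelin. It was at least 4.55-fold lower (adjusted p = 1.77e-06). Ckm, the cytosolic muscle creatine kinase, had 9.81 and 9.32 with embelin, against 11.86 and 11.91 with DMSO (log2 change -2.32, SE 0.56, adjusted p = 0.00729), and Ckb, the brain-type enzyme, had 12.34 and 11.95 with embelin, against 14.20 and 14.25 with DMSO (log2 change -2.08, SE 0.45, adjusted p = 0.00432). All creatine kinase arrays of embelin cells lay below those of DMSO cells. Myoglobin (Mb) had 12.21 and 11.60 with embelin, against 13.67 and 13.76 with DMSO (log2 change -1.81, SE 0.30, adjusted p = 0.000962). The call of Ckm was lost without embelin replicate 2 (adjusted p = 0.0564).

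Several enzymes have a muscle isoform and a general isoform encoded by different genes, and some of these pairs, chosen after their values were seen, moved in opposite directions with embelin. The creatine kinase genes above, both lower, did not. Of 10 muscle genes of glycogen and glycolysis 7 fell and 2 rose, among them the glycogen synthase gene Gys1 (log2 change 0.61, SE 0.15, adjusted p = 0.00852). The muscle enolase gene Eno3 had 12.23 and 11.90 with embelin, against 13.84 and 13.97 with DMSO (log2 change -1.84, SE 0.13, adjusted p = 4.28e-06), and the general enolase gene Eno1 had 14.71 and 14.90 with embelin, against 14.29 and 14.26 with DMSO (log2 change 0.53, SE 0.10, adjusted p = 0.00227). The muscle phosphoglycerate mutase gene Pgam2 had 9.62 and 9.33 with embelin, against 11.95 and 11.88 with DMSO (log2 change -2.44, SE 0.38, adjusted p = 0.000562), and Pgam1 had 10.82 and 10.79 with embelin, against 10.16 and 9.55 with DMSO (log2 change 0.95, SE 0.20, adjusted p = 0.00342). Each muscle isoform was lower, and each general isoform higher, on both embelin arrays. The muscle phosphofructokinase gene Pfkm fell (log2 change -1.20, SE 0.18, adjusted p = 0.000513), while the liver-type gene Pfkl (log2 change 1.06, SE 0.26, adjusted p = 0.00757) and the platelet-type gene Pfkp (log2 change 1.16, SE 0.21, adjusted p = 0.00145) rose.

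The transporters and deaminases showed the like pattern. The insulin-responsive glucose transporter gene Slc2a4 (GLUT4) had 5.78 and 5.94 with embelin, against 7.34 and 7.64 with DMSO (log2 change -1.63, SE 0.14, adjusted p = 1.11e-05). Slc2a1 (GLUT1), the basal transporter, had 12.63 and 12.76 with embelin, against 11.07 and 10.92 with DMSO (log2 change 1.70, SE 0.13, adjusted p = 6.09e-06), and Slc2a3 (GLUT3) had 10.73 and 10.77 with embelin, against 8.88 and 7.74 with DMSO (log2 change 2.44, SE 0.33, adjusted p = 0.000227). The muscle AMP deaminase gene Ampd1, not above background with embelin, was at least 4.16-fold lower (adjusted p = 4.33e-06), and Ampd3, the erythrocyte-type gene, had 9.84 and 9.93 with embelin, against 8.48 and 8.49 with DMSO (log2 change 1.396, SE 0.17, adjusted p = 0.000106). These pairs were chosen after their values were seen, and probes of different genes are not compared in level. The call of Pfkl was lost without embelin replicate 2 (adjusted p = 0.0542) and without DMSO replicate 2 (adjusted p = 0.0541).

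**Figure D3:**
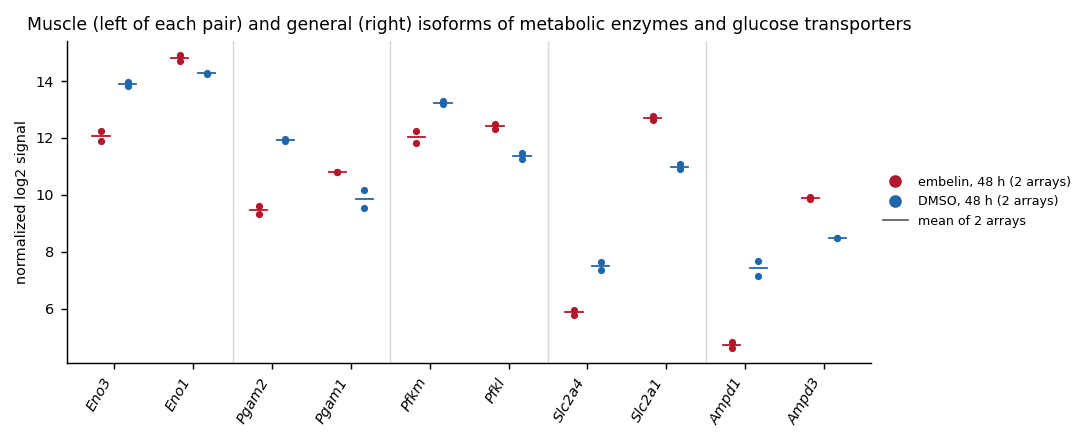
Normalized log2 signals of 5 pairs of genes at 48 h, chosen after their values were seen, the muscle isoform left and the general isoform right in each pair, with embelin arrays in red (left) and DMSO arrays in blue (right) and short lines at means of 2 arrays. In every pair shown the muscle isoform is lower and the general isoform higher with embelin.

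Of 15 genes of glucose uptake and glycolysis (muscle isoforms listed apart), 14 were higher and 1 lower with embelin, the median being 0.95. Hk1 (hexokinase) had 8.37 and 8.55 with embelin, against 7.26 and 6.83 with DMSO (log2 change 1.41, SE 0.16, adjusted p = 7.56e-05). Pdk1, the kinase that holds back pyruvate dehydrogenase, rose by 1.59 (adjusted p = 0.0111), Pkm (pyruvate kinase) by 0.95 (adjusted p = 0.000215), Pgk1 by 0.84 (adjusted p = 0.000164) and Ldha (lactate dehydrogenase) by 0.74 (adjusted p = 0.000177). Pfkfb4, a regulatory enzyme of glycolysis, was the member that fell (log2 change -0.49, SE 0.10, adjusted p = 0.0025). The call of Pdk1 was lost without embelin replicate 1 (adjusted p = 0.0587) and without DMSO replicate 2 (adjusted p = 0.0507).

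Genes of the hypoxia response rose in 19 of 23, and none fell (median 1.06). Hypoxia-inducible factors bind short sites with the core ACGTG or GCGTG in their target genes when the prolyl hydroxylases slow down. Angptl4, a lipoprotein lipase inhibitor, had 12.08 and 12.36 with embelin, against 9.84 and 6.67 with DMSO (log2 change 3.97, SE 0.70, adjusted p = 0.0013), the largest change of the list and with a wide gap between the DMSO arrays. The carbonic anhydrase genes Car12, at 10.03 and 10.03 with embelin, against 7.53 and 5.84 with DMSO (log2 change 3.34, SE 0.39, adjusted p = 8.48e-05), and Car9, at 10.70 and 10.61 with embelin, against 8.33 and 6.80 with DMSO (log2 change 3.09, SE 0.44, adjusted p = 0.000365), lay above DMSO on both embelin arrays. The stress-response gene Ndrg1 rose (log2 change 2.65, SE 0.25, adjusted p = 2.21e-05), as did the glycogen-targeting gene Ppp1r3c (log2 change 2.07, SE 0.21, adjusted p = 4.05e-05), the hydroxylase gene Egln1 (PHD2) (log2 change 1.96, SE 0.17, adjusted p = 1.28e-05) and the mitophagy receptor gene Bnip3l (log2 change 1.61, SE 0.15, adjusted p = 2.22e-05). The transcript of the oxygen-regulated subunit itself, Hif1a, was also higher (log2 change 1.06, SE 0.18, adjusted p = 0.000934), while Arnt (0.13) and Hif1an (0.14) did not pass. DMSO replicate 1 lay above DMSO replicate 2 in 20 of the 23 genes, and what set these arrays apart was not tested. The count of higher genes was 19 with any 1 of the 4 arrays left out.

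Promoter sequence of the hypoxia genes was read from RefSeq (mouse build GRCm38.p6), in the 250 bases before the gene start. The cores ACGTG and GCGTG on either strand, which overlap where they form a palindrome, were found in 14 of 19 measured hypoxia genes with a promoter entry (73.7%), against 58.5% of all tested genes with one. Among all genes called higher the share was 61.0%, and among those called lower 56.3%. For 3 genes, those of largest change among the called members with a match, a stretch around a match is shown, with the cores or their reverse complements in capitals.
Car9, chr4:43506983-43507025, plus strand: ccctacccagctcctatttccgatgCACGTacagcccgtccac
Ppp1r3c, chr19:36736678-36736732, minus strand: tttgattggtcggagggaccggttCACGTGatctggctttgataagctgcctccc
Egln1, chr8:124949293-124949347, minus strand: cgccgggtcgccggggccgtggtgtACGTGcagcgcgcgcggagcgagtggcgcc
A match describes the letters and does not show a bound site.

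Mitochondrial genes went the other way. Of 70 respiratory chain genes, 55 fell and 1 rose (median -0.51): 24 of 34 in complex I, 10 of 11 in complexes II and III with cytochrome c, 9 of 11 in complex IV and 12 of 14 in the ATP synthase. The largest change was in Cox8b, which like Cox7a1 encodes a muscle and heart isoform of cytochrome oxidase. Cox8b had 10.45 and 10.34 with embelin, against 12.12 and 12.32 with DMSO (log2 change -1.83, SE 0.43, adjusted p = 0.00631) and Cox7a1 had 7.10 and 6.99 with embelin, against 8.11 and 8.34 with DMSO (log2 change -1.18, SE 0.22, adjusted p = 0.00171), and for both genes the arrays of the groups were apart. Cycs (cytochrome c) fell as well (log2 change -1.22, SE 0.14, adjusted p = 6.5e-05), and complex I genes such as Ndufb2 (-0.85, adjusted p = 0.00589) and Ndufs8 (-0.83, adjusted p = 0.000225) by less. Ndufv3 was the gene that rose (log2 change 0.54, SE 0.15, adjusted p = 0.0178), and its call was lost when any 1 of the 4 arrays was left out (adjusted p from 0.0528 to 0.0918). In the TCA cycle 13 of 18 genes fell and none rose (median -0.49), led by the isocitrate dehydrogenase gene Idh3a (log2 change -1.43, SE 0.10, adjusted p = 4.68e-06), a count of 8 under scaling by the array median or without embelin replicate 2.

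Genes of fatty acid and lipid metabolism were lower in 10 of 24 and higher in 3, and of the 13 genes of uptake and oxidation 6 were lower and 2 higher. Ppargc1a (PGC-1alpha), the coactivator that drives mitochondrial biogenesis, had 4.84 and 4.89 with embelin, against 6.22 and 7.24 with DMSO, was not above background with embelin and was at least 2.59-fold lower (adjusted p = 0.00027). Its paralog Ppargc1b had 8.08 and 7.67 with embelin, against 9.14 and 9.45 with DMSO (log2 change -1.42, SE 0.16, adjusted p = 6.27e-05). Both genes were lower on both embelin arrays. Fabp3, the muscle fatty acid carrier, fell (log2 change -1.54, SE 0.16, adjusted p = 5.29e-05), whereas the lipid droplet gene Plin2 (log2 change 0.85, SE 0.18, adjusted p = 0.00394) and the phosphatidate phosphatase gene Lpin1 (log2 change 1.06, SE 0.15, adjusted p = 0.000358) rose.

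Cell division genes were lower still. Of 31 genes of G2 and mitosis measured, 28 fell and none rose (median -2.33, or -2.32 with the 7 genes not above background at their bound). Birc5 (survivin, a chromosomal passenger protein) had 6.76 and 5.83 with embelin, against 9.37 and 9.41 with DMSO (log2 change -3.10, SE 0.23, adjusted p = 5.67e-06). The proliferation antigen gene Mki67 had 5.43 and 4.997 with embelin, against 8.12 and 8.35 with DMSO and was detected on 1 of the 2 embelin arrays (log2 change -3.02, SE 0.15, adjusted p = 9.13e-07). Top2a, which untangles sister chromatids, had 6.14 and 5.88 with embelin, against 8.51 and 8.95 with DMSO (log2 change -2.72, SE 0.18, adjusted p = 2.5e-06). The embelin arrays were far below the DMSO arrays for each, and the same held for Pbk, a mitotic kinase gene outside the list (6.06 and 5.66 with embelin, against 8.82 and 9.07 with DMSO). Cyclin B1 (Ccnb1, -2.80), Cdc20 (-2.48) and the kinase gene Bub1b (-2.39) fell with adjusted p-values of 1.42e-06, 3.35e-06 and 8.28e-07. The 3 that did not pass were Ect2 (-0.52), Ccnf (-0.18) and Kif23 (0.22), the last standing at -1.86 (adjusted p = 2.11e-05) when the probes of a gene were averaged.

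Many mitotic promoters carry a cell cycle homology region, the element TTTGAA, through which they are held silent in non-dividing cells. It was found on either strand within 250 bases before the start in 10 of 27 measured G2/M genes with a RefSeq promoter (37.0%), against 10.3% of all tested genes. The box CCAAT on either strand was found in 20 of the 27 (74.1%), against 36.6%. Among all genes called higher the shares were 10.7% for TTTGAA and 35.3% for CCAAT. Among those called lower they were 11.6% and 40.3%. The stretches of the 3 called members with the largest change and a match are shown, with TTTGAA or its reverse complement in capitals.
Mki67, chr7:135716447-135716502, minus strand: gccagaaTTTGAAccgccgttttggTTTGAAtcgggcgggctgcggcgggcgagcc
Top2a, chr11:99024190-99024237, minus strand: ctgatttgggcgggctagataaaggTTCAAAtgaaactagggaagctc
Kif22, chr7:127042421-127042462, minus strand: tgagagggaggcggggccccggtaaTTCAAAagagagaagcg
Kif22, a chromosome-arm motor, had 6.73 and 6.20 with embelin, against 9.14 and 9.08 with DMSO (log2 change -2.64, SE 0.15, adjusted p = 1.77e-06).

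DNA replication genes fell in 24 of 38 and rose in 1 (median -1.01, or -0.68 with the 11 genes not above background at their bound). The helicase gene Mcm5 had 6.42 and 6.13 with embelin, against 9.10 and 8.999 with DMSO (log2 change -2.77, SE 0.17, adjusted p = 2.08e-06), and Uhrf1, which keeps DNA methylation in S phase, had 7.15 and 6.65 with embelin, against 9.56 and 9.67 with DMSO (log2 change -2.71, SE 0.17, adjusted p = 2.08e-06). Both embelin arrays were below both DMSO arrays for each gene. Tk1 (thymidine kinase) fell (log2 change -2.60, SE 0.14, adjusted p = 1.2e-06), while the sliding clamp gene Pcna (-0.54) and the reductase gene Rrm2 (0.05) did not pass. E2f1, a factor that drives entry into S phase, rose (log2 change 0.52, SE 0.11, adjusted p = 0.00415). Of 13 genes listed as brakes of the cycle, with the D cyclins and their kinases, 2 rose and 3 fell. These shares (15.4% and 23.1%) were near those of all genes (19.8% and 19.9%). Cdkn1a (p21) was higher (log2 change 0.40, SE 0.12, adjusted p = 0.02), a call lost with any 1 of the 4 arrays left out (adjusted p from 0.0557 to 0.103). Cdkn1c (p57), abundant in differentiating muscle, had 11.68 and 10.47 with embelin, against 14.25 and 14.38 with DMSO (log2 change -3.24, SE 0.95, adjusted p = 0.0203). The embelin arrays were both lower but differed widely, and the call was lost without embelin replicate 2 (adjusted p = 0.132) and without either DMSO array (adjusted p from 0.0659 to 0.0844). The pocket protein gene Rbl1 (p107), not above background with embelin, was at least 2.22-fold lower (adjusted p = 5.37e-05). Rb1 (-0.17) and Cdkn1b (0.37) did not pass, and Ccnd1 (cyclin D1) rose (log2 change 0.56, SE 0.13, adjusted p = 0.00677).

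The replication-dependent histone genes did not move as 1 group. Of 13 H2A genes 10 were lower and 2 higher, of 9 H2B genes 8 were higher and none lower, of 8 H4 genes 3 were higher and none lower, and of 7 H3 genes 3 were lower and 1 higher. H2ac23 had 9.94 and 9.85 with embelin, against 13.17 and 13.23 with DMSO (log2 change -3.30, SE 0.11, adjusted p = 1.16e-07), a fall of about the same size on both embelin arrays. H2bc11 had 10.50 and 10.61 with embelin, against 9.67 and 9.51 with DMSO (log2 change 0.96, SE 0.15, adjusted p = 0.000635), with both embelin arrays above both DMSO arrays. Within H2A, H2ac18 (log2 change 1.804, SE 0.21, adjusted p = 8.42e-05) and H2ac19 (log2 change 1.59, SE 0.16, adjusted p = 3.68e-05) were higher. H2A genes share most of their sequence, so that single genes are uncertain where a probe reads more than 1. The variant gene H2ax, used in DNA damage signalling, fell (log2 change -0.84, SE 0.12, adjusted p = 0.000417), and H2aj rose (log2 change 0.87, SE 0.13, adjusted p = 0.000377). H2A genes were also the ones already lower at 24 h, where H2ac10, H2ac13, H2ac20 and H2ac23 were the 4 genes called lower of all genes tested. The probes of H2ac20 disagreed: its brightest probe was lower at 48 h, but the mean over its probes stood at 0.0738 (adjusted p = 0.65 in limma).

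Targets of p53, which raises brakes and death genes after damage, rose in 11 of 18 and fell in 2 (median 0.63). Mdm2, the ligase that p53 induces against itself, had 11.91 and 12.05 with embelin, against 10.74 and 10.63 with DMSO (log2 change 1.30, SE 0.16, adjusted p = 0.000141). Ccng1 (cyclin G1) had 12.48 and 12.65 with embelin, against 11.38 and 11.27 with DMSO (log2 change 1.24, SE 0.13, adjusted p = 5.67e-05), and Trp53inp1 had 10.86 and 10.82 with embelin, against 9.60 and 9.32 with DMSO (log2 change 1.38, SE 0.14, adjusted p = 4.27e-05). For all 3 both embelin arrays were above both DMSO arrays. The death receptor gene Fas (log2 change 1.21, SE 0.11, adjusted p = 2.06e-05), the pore gene Bax (log2 change 1.07, SE 0.14, adjusted p = 0.000217) and Zmat3 (log2 change 0.98, SE 0.18, adjusted p = 0.0016) rose too. The BH3-only gene Pmaip1 (Noxa), detected on 1 embelin array, fell (log2 change -2.01, SE 0.32, adjusted p = 0.000713), as did Plk3 (-0.49, adjusted p = 0.022), a call lost without embelin replicate 2 (adjusted p = 0.148) and without DMSO replicate 1 (adjusted p = 0.152). Trp53 itself stood at 0.02 (adjusted p = 0.89).

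In the wider list of cell death genes 11 of 26 rose and 2 fell. The inflammatory caspase gene Casp4 (caspase 11 in mouse) had 8.78 and 9.02 with embelin, against 7.09 and 6.62 with DMSO (log2 change 2.05, SE 0.17, adjusted p = 9.37e-06), with the embelin arrays high and the DMSO arrays low. Casp6 rose (log2 change 1.09, SE 0.11, adjusted p = 2.85e-05), and Casp12, not above background with DMSO, was at least 1.56-fold higher (adjusted p = 0.00102). Of the BCL2 family, the survival gene Bcl2l1 (BCL-XL) rose (log2 change 1.16, SE 0.18, adjusted p = 0.000549), as did the death gene Bcl2l11 (BIM) (log2 change 0.78, SE 0.17, adjusted p = 0.00402), and Bid fell (log2 change -1.22, SE 0.16, adjusted p = 0.000249). Xiap, which the array does carry, did not pass the detection filter and was not tested. The count of higher genes was 7 without embelin replicate 2 and 7 without DMSO replicate 2.

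Inflammatory genes moved in both directions, by programme. Genes of the acute phase and of IL-6-type signalling through STAT3 rose in 12 of 18 and fell in none (median 1.12, or 0.98 with the 6 genes not above background at their bound). Saa3 (serum amyloid A), induced by cytokines in many cells, had 12.50 and 12.56 with embelin, against 10.48 and 6.07 with DMSO (log2 change 4.25, SE 0.97, adjusted p = 0.00564), with the embelin arrays close together and the DMSO arrays far apart. Cp (ceruloplasmin) had 11.85 and 11.88 with embelin, against 8.59 and 8.002 with DMSO (log2 change 3.56, SE 0.37, adjusted p = 4.03e-05). The feedback inhibitor gene Socs3 had 11.29 and 11.36 with embelin, against 9.23 and 8.70 with DMSO (log2 change 2.36, SE 0.19, adjusted p = 9.61e-06). The receptor genes Osmr (oncostatin M receptor, 9.92 and 10.18 with embelin, against 8.08 and 7.37 with DMSO, log2 change 2.32, SE 0.21, adjusted p = 1.73e-05) and Il6ra (IL-6 receptor, 7.17 and 7.53 with embelin, against 5.31 and 5.38 with DMSO, log2 change 2.00, SE 0.13, adjusted p = 3.19e-06) were higher on both embelin arrays. The factor genes Cebpd (log2 change 1.35, SE 0.10, adjusted p = 5.12e-06) and Cebpb (log2 change 0.83, SE 0.14, adjusted p = 0.000918) rose. Stat3 did not pass by its brightest probe (0.28, adjusted p = 0.142). Its other probes were higher, at 0.44 and 0.55 (adjusted p = 0.00632 and 0.0245 in limma over probes). The leukocyte marker sum was higher with embelin too, as given above, but its defining markers Ptprc, Adgre1, Cd68, Tyrobp and Lyz2 were not detected on any of the 4 arrays.

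NF-kB genes rose in 7 of 17 and fell in none. The factors and inhibitors rose in 5 of 9. The other targets rose in 2 of 8 (25%), near the 19.8% of all genes. The inhibitor gene Nfkbia, itself an NF-kB target, had 9.84 and 10.09 with embelin, against 8.33 and 8.02 with DMSO (log2 change 1.79, SE 0.13, adjusted p = 5.12e-06), and the atypical inhibitor gene Nfkbiz had 10.37 and 10.57 with embelin, against 8.81 and 8.52 with DMSO (log2 change 1.81, SE 0.12, adjusted p = 3.19e-06). Both stood clear of the DMSO arrays. The subunit genes Rela (log2 change 0.88, SE 0.10, adjusted p = 8.69e-05) and Nfkb1 (log2 change 0.87, SE 0.09, adjusted p = 4.27e-05) were higher, while Relb (0.20) and Nfkb2 (0.18) did not pass. A kappaB motif was found within 250 bases before the start of 7 of 12 measured members with a promoter (58.3%), against 4.36% of all tested genes. The list was drawn up from NF-kB factors, inhibitors and targets, so that its share says nothing of the embelin effect. Among all genes called higher the share was 4.07%, and among those called lower 4.12%. Of 9 chemokines 6 rose and 3 fell. Of the 5 detected on all 12 arrays, 3 rose and 2 fell. The neutrophil attractant gene Cxcl1 had 12.43 and 12.68 with embelin, against 10.18 and 8.58 with DMSO (log2 change 3.18, SE 0.38, adjusted p = 0.000101), Cxcl12 had 10.96 and 10.78 with embelin, against 8.52 and 6.74 with DMSO (log2 change 3.24, SE 0.41, adjusted p = 0.000146), and the monocyte attractant Ccl2, detected on 1 DMSO array, had 6.33 and 6.41 with embelin, against 5.31 and 4.94 with DMSO (log2 change 1.24, SE 0.12, adjusted p = 3.15e-05). The count of higher chemokines was 4 without embelin replicate 2, 5 without embelin replicate 1 and 4 without DMSO replicate 1.

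Interferon-induced genes were lower. Of 24 genes of the interferon response and antigen presentation, 18 fell and 2 rose (median -0.87, or -0.85 with bounds). Of the 13 induced effectors 12 fell. When the whole list was limited to the 13 genes detected on all 12 arrays, 8 fell. Ifit3, which binds viral RNA cap structures with its partners, had 6.64 and 6.36 with embelin, against 9.50 and 9.55 with DMSO (log2 change -3.02, SE 0.14, adjusted p = 8.28e-07). Usp18, the feedback inhibitor of interferon signalling, had 4.88 and 4.63 with embelin, against 7.69 and 7.59 with DMSO, was not above background with embelin, and was at least 4.87-fold lower (adjusted p = 4.3e-07). Oasl2 had 7.24 and 6.88 with embelin, against 9.54 and 9.51 with DMSO (log2 change -2.46, SE 0.36, adjusted p = 0.000376). The embelin arrays were below the DMSO arrays for all 3. Of the factors, Irf9 fell (log2 change -0.75, SE 0.14, adjusted p = 0.00173), while Irf1 rose (log2 change 0.72, SE 0.14, adjusted p = 0.00221). The 3 chemokine genes that fell were Cxcl10, not above background with embelin and at least 2.15-fold lower, Ccl5 with 7.59 and 7.44 with embelin, against 9.10 and 9.27 with DMSO (log2 change -1.67, SE 0.17, adjusted p = 3.7e-05), and Cx3cl1 (log2 change -1.20, SE 0.12, adjusted p = 3.93e-05). The class I heavy chain gene H2-D1 rose (log2 change 0.84, SE 0.11, adjusted p = 0.000265), and H2-K1 (0.09) and B2m (0.07) did not pass.

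The interferon-stimulated response element, which a complex holding IRF9 binds, was searched on both strands of the same promoter window. It was found in 8 of 19 measured genes of the list with a promoter (42.1%), against 2.47% of all tested genes. The list was drawn up from interferon genes. Among all genes called higher the share was 2.97%, and among those called lower 3.04%. The stretches of the 3 called genes with the largest change and a match carry the element in capitals.
Ifit3, chr19:34583382-34583441, plus strand: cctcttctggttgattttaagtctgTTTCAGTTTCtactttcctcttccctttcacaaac
Gbp3, chr3:142559980-142560039, plus strand: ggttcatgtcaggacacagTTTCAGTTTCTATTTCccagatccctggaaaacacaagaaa
Igtp, chr11:58199497-58199555, plus strand: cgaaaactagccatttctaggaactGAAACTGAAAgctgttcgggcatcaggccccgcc
The GTPase genes Gbp3 (5.83 and 5.89 with embelin, against 7.57 and 7.73 with DMSO, log2 change -1.797, SE 0.10, adjusted p = 1.77e-06) and Igtp (7.54 and 7.40 with embelin, against 9.24 and 9.27 with DMSO, log2 change -1.79, SE 0.15, adjusted p = 1.13e-05) were both lower with embelin.

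**Figure D4:**
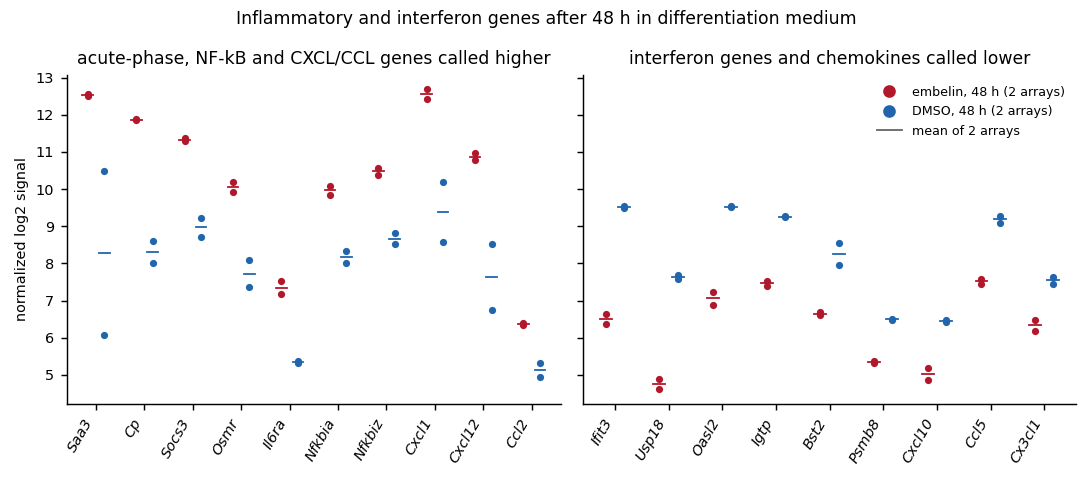
Normalized log2 signals at 48 h of 10 acute-phase, NF-kB and chemokine genes (left panel) and 9 interferon and chemokine genes (right panel), chosen after their values were seen, with embelin arrays in red (left of each pair), DMSO arrays in blue (right) and short lines at means of 2 arrays. Every gene on the left is higher and every gene on the right lower with embelin, and the DMSO arrays are far apart for Saa3, Cxcl1 and Cxcl12.

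Most matrix remodelling genes rose. Of 13 proteases and inhibitors 9 rose and 2 fell, the lower count being 1 without DMSO replicate 2. The collagenase gene Mmp13 had 8.53 and 8.57 with embelin, against 5.90 and 4.53 with DMSO, detected on 1 of the 2 DMSO arrays (log2 change 3.33, SE 0.37, adjusted p = 6.5e-05), and the stromelysin gene Mmp3 had 8.29 and 8.50 with embelin, against 6.08 and 4.996 with DMSO, again detected on 1 DMSO array (log2 change 2.85, SE 0.26, adjusted p = 2.11e-05). Their inhibitor genes Timp3 (log2 change 1.01, SE 0.12, adjusted p = 0.000114) and Timp1 (log2 change 0.66, SE 0.13, adjusted p = 0.0027) were higher as well. Of 19 collagen genes 2 rose and 3 fell, the main fibrillar genes Col1a1 (-0.04), Col1a2 (-0.08) and Col3a1 (0.64) not passing by their brightest probes. Another Col3a1 probe was higher, at 1.25 (adjusted p = 0.012 in limma over probes). The counts here are by brightest probe. The higher count was 1 without either embelin array or DMSO replicate 1, and 4 without embelin replicate 2 of the growth-medium arrays. Col8a2 fell, with 5.48 and 4.75 with embelin, against 8.20 and 8.51 with DMSO and detection on 1 embelin array (log2 change -3.24, SE 0.37, adjusted p = 7.26e-05), and Col12a1 rose, with 11.09 and 11.22 with embelin, against 9.55 and 9.39 with DMSO (log2 change 1.68, SE 0.26, adjusted p = 0.000555). Both groups were apart for these genes.

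Of 11 laminin and basement membrane genes 2 rose and 2 fell, shares (18.2% each) near those of all genes, and the higher count was 1 with any 1 of the 4 arrays left out. Lama1 (laminin alpha 1) had 5.53 and 4.58 with embelin, against 8.20 and 8.18 with DMSO, detected on 1 embelin array (log2 change -3.13, SE 0.27, adjusted p = 1.31e-05), and Lamb3, also detected on 1 embelin array, fell too (log2 change -1.21, SE 0.22, adjusted p = 0.0016), but the linker gene Nid1 (nidogen) had 11.34 and 11.53 with embelin, against 9.85 and 9.44 with DMSO (log2 change 1.79, SE 0.14, adjusted p = 7.01e-06) and so rose. Among 20 matricellular and cross-linking genes 9 rose and 2 fell, the higher ones including fibronectin (Fn1, log2 change 1.72, SE 0.12, adjusted p = 4.68e-06), lysyl oxidase (Lox, log2 change 1.85, SE 0.18, adjusted p = 2.71e-05) and the hydroxylase subunit gene P4hb (log2 change 1.32, SE 0.10, adjusted p = 6.8e-06). Without embelin replicate 2 that higher count was 5, and no lower call was left without embelin replicate 2 or DMSO replicate 1. Of 8 integrin genes 2 rose and 2 fell, 1 of the lower calls being lost with any 1 of the 4 arrays left out. The integrin shares (25% each way) stood against 19.8% higher and 19.9% lower of all genes. Itgb4, not above background with DMSO, was at least 1.73-fold higher (adjusted p = 7.24e-05).

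Growth factor genes changed by member rather than by family. In the IGF axis, which promotes muscle growth, Igfbp3 had 5.43 and 5.11 with embelin, against 8.06 and 8.19 with DMSO (log2 change -2.86, SE 0.25, adjusted p = 1.33e-05), with detection on 1 embelin array, and Igfbp2 had 8.76 and 8.86 with embelin, against 7.33 and 7.02 with DMSO (log2 change 1.64, SE 0.14, adjusted p = 1.18e-05). The binding proteins thus moved in opposite directions, and Igf2 (-0.59) and Igf1 (-0.55) did not pass. The receptor genes Igf1r (log2 change 0.78, SE 0.13, adjusted p = 0.000983) and Irs2, their docking protein (log2 change 1.09, SE 0.14, adjusted p = 0.000165), rose. Bmp4, a ligand that holds back muscle differentiation, had 6.98 and 7.18 with embelin, against 5.09 and 4.53 with DMSO, was not above background with DMSO and was at least 3.44-fold higher (adjusted p = 7.18e-06). The BMP antagonist gene Grem1 rose too (log2 change 1.77, SE 0.36, adjusted p = 0.00281), and Tgfb1 fell (log2 change -1.01, SE 0.14, adjusted p = 0.000241). In the TGF-beta family 9 of 25 rose and 3 fell, the lower count being 1 without embelin replicate 2 or either DMSO array and 5 without embelin replicate 2 of the growth-medium arrays. Without any 1 of embelin replicate 1, embelin replicate 2 and DMSO replicate 2, the higher count was 6.

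Notch, which keeps muscle progenitors undifferentiated, was represented by 10 measured genes, of which 5 fell and 1 rose. Of the 7 detected on all 12 arrays, 2 fell. The target gene Hey1 had 7.86 and 7.69 with embelin, against 9.79 and 9.97 with DMSO (log2 change -2.10, SE 0.15, adjusted p = 5.12e-06), and Heyl, not above background with embelin, had 4.96 and 4.57 with embelin, against 7.06 and 7.25 with DMSO and was at least 3.48-fold lower (adjusted p = 6.25e-05). Hes1 stood at -0.31 and did not pass. The ligand gene Jag1, not above background with embelin, was at least 1.33-fold lower (adjusted p = 0.00684), a call lost without DMSO replicate 1 (adjusted p = 0.0537), where 2 genes of the list were lower. Among 12 inhibitors of myogenesis 7 rose and 2 fell. Id2, which sequesters the partners of MyoD and was detected on 1 DMSO array, had 7.21 and 7.13 with embelin, against 6.14 and 4.996 with DMSO (log2 change 1.61, SE 0.30, adjusted p = 0.00172), and Twist2 had 8.76 and 8.56 with embelin, against 7.83 and 7.27 with DMSO (log2 change 1.11, SE 0.17, adjusted p = 0.000562), whereas Id1 (-0.20) did not pass and Sox8 fell (log2 change -1.49, SE 0.35, adjusted p = 0.00618). That higher count was 4 without embelin replicate 1 or without either DMSO array, 3 without embelin replicate 2, and 4 under 75th percentile scaling, and the lower count was 1 without replicate 2 of either group.

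All 4 called genes of the aryl hydrocarbon receptor list, of 5 measured, were higher: Aldh3a1 had 10.78 and 10.87 with embelin, against 7.92 and 7.12 with DMSO (log2 change 3.31, SE 0.21, adjusted p = 2.55e-06) and Cyp1b1 had 10.58 and 10.96 with embelin, against 9.41 and 8.65 with DMSO (log2 change 1.74, SE 0.22, adjusted p = 0.000178). Of 10 metallothionein and zinc genes 4 rose and none fell (median 0.11). Mt1, with 15.37 and 15.26 with embelin, against 13.72 and 12.65 with DMSO (log2 change 2.12, SE 0.25, adjusted p = 0.00011), and Mt2, with 8.62 and 8.67 with embelin, against 6.44 and 5.79 with DMSO (log2 change 2.54, SE 0.21, adjusted p = 1e-05), were higher on both embelin arrays. Embelin replicate 1 had Mt1 at 15.37, the highest gene signal on that array. Targets of the redox factor NRF2 were mixed, with 8 of 20 higher and 3 lower. The heme oxygenase gene Hmox1 rose (log2 change 1.44, SE 0.18, adjusted p = 0.000127), as did Nfe2l2 itself (log2 change 0.64, SE 0.12, adjusted p = 0.00168), but the glutathione synthesis genes Gclc (-0.01) and Gclm (0.35) and Nqo1 (0.54) did not pass. Of 17 glutathione transferases 2 rose, Gstm1 (log2 change 1.28, SE 0.10, adjusted p = 8.12e-06) and Mgst1 (log2 change 1.30, SE 0.12, adjusted p = 2.3e-05), and 4 fell, led by Gsta3 (-1.26, adjusted p = 0.00508). The transferase shares were 11.8% higher and 23.5% lower, against 19.8% and 19.9% of all genes. Gst genes share sequence, and their probes may not be specific.

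Most biosynthetic and proteostasis lists were lower or mixed. Of 17 ER chaperone genes, however, 5 (29.4%) rose and none fell (median 0.18), a count of 3 without a detection filter. The share of lower ribosomal protein genes given below (14.3%) was under that of all genes (19.9%). Sterol synthesis fell in 7 of 22 genes, none rising, with Mvd at 6.84 and 6.68 with embelin, against 8.12 and 8.398 with DMSO (log2 change -1.50, SE 0.19, adjusted p = 0.000182) and Dhcr7 at 7.46 and 7.19 with embelin, against 8.47 and 8.60 with DMSO (log2 change -1.21, SE 0.16, adjusted p = 0.000234). Serine and one-carbon genes fell in 4 of 6, led by Phgdh, the entry enzyme (log2 change -1.05, SE 0.12, adjusted p = 9.68e-05). Of the 4 calls, Psat1 was lost without embelin replicate 2 (adjusted p = 0.0919) and without DMSO replicate 2 (adjusted p = 0.113), and so was Shmt2 (adjusted p = 0.0508 and 0.0703). The whole ATF4 list had 9 of 26 lower and 3 higher, the lower count being 4 without either of those arrays. In it the stress factor gene Ddit3 (CHOP) (log2 change 1.02, SE 0.12, adjusted p = 0.000114) and the phosphatase subunit gene Ppp1r15a (GADD34) (log2 change 1.43, SE 0.18, adjusted p = 0.000155) rose. Proteasome subunits fell in 17 of 26 and rose in none, each by less than 1 log2 unit, with Psmc5 lowest (log2 change -0.91, SE 0.12, adjusted p = 0.00016). That count was 9 under scaling by the array median and 9, 11, 10 and 12 without embelin replicate 1, embelin replicate 2, DMSO replicate 1 and DMSO replicate 2. Ribosomal protein genes fell in 8 of 56 (14.3%), between 4 and 6 with 1 array left out, but in 24 with the series matrix values, 18 under 75th percentile scaling and 17 with a trended and robust prior. The muscle-enriched small heat shock genes Hspb3 (log2 change -2.03, SE 0.20, adjusted p = 3.22e-05) and Hspb7, detected on 1 embelin array (log2 change -1.88, SE 0.24, adjusted p = 0.000166), fell. Of 7 muscle ubiquitin ligase genes 2 rose and 3 fell. The atrophy gene Fbxo32 (atrogin-1) rose (log2 change 0.97, SE 0.19, adjusted p = 0.00249). Asb2 (log2 change -2.87, SE 0.54, adjusted p = 0.00183) and Trim54 (log2 change -1.56, SE 0.18, adjusted p = 9.3e-05), which belong to differentiated fibres, fell. Trim63 was the other lower ligase gene. Its call was lost without embelin replicate 1 (log2 change -0.49) and without DMSO replicate 2 (-0.48). Of 7 FoxO factors and targets 5 rose and none fell, among them the factor gene Foxo3 (log2 change 0.94, SE 0.13, adjusted p = 0.000311).

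Acetylation enzymes include the named target. Kat2b had 6.40 and 6.58 with embelin, against 5.89 and 6.08 with DMSO (log2 change 0.51, SE 0.14, adjusted p = 0.0138), a call lost without embelin replicate 2 (adjusted p = 0.102) and without DMSO replicate 1 (adjusted p = 0.09), and its paralog Kat2a did not pass (-0.13). Kat6b (log2 change 0.72, SE 0.11, adjusted p = 0.000399) and Kat5 (log2 change 0.60, SE 0.12, adjusted p = 0.00278) rose. Of 14 deacetylases 3 rose and 3 fell, Hdac11 furthest, with 7.34 and 6.80 with embelin, against 8.32 and 8.38 with DMSO (log2 change -1.28, SE 0.28, adjusted p = 0.0044), and the sirtuin gene Sirt6 rose (log2 change 0.86, SE 0.17, adjusted p = 0.00253). The deacetylase shares (21.4% each way) were near those of all genes (19.8% higher and 19.9% lower). The arrays show transcripts and not enzyme activity. Over the 25 enzymes 8 rose, a count of 4 without embelin replicate 2 and 5 without DMSO replicate 1, and 4 fell, a count of 2 without embelin replicate 2, without DMSO replicate 2 or under scaling by the array median.

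Among the 20 largest changes in each direction were genes of no list. Parm1, a membrane mucin-like gene, fell most, with 7.50 and 6.80 with embelin, against 11.06 and 11.25 with DMSO (log2 change -4.00, SE 0.65, adjusted p = 0.000778). Nmrk2, the muscle kinase of nicotinamide riboside, had 7.34 and 6.81 with embelin, against 10.08 and 10.23 with DMSO (log2 change -3.08, SE 0.23, adjusted p = 6.09e-06). Tceal6, not above background with embelin, was at least 6.38-fold lower. Both DMSO arrays were high for these genes. On the other side, Nos2 (inducible nitric oxide synthase), not above background with DMSO, had 8.14 and 7.87 with embelin, against 5.22 and 4.52 with DMSO and was at least 6.53-fold higher (adjusted p = 2.03e-06). The pentraxin gene Ptx3 had 10.82 and 10.88 with embelin, against 8.13 and 7.24 with DMSO (log2 change 3.16, SE 0.26, adjusted p = 9.61e-06), and Hsd11b1, which regenerates active glucocorticoid, had 10.87 and 11.004 with embelin, against 8.79 and 7.65 with DMSO (log2 change 2.72, SE 0.44, adjusted p = 0.00074). Rasl11a (3.21), Kbtbd11 (3.06), Prg4 (lubricin, 2.83) and Enpp2 (autotaxin, 2.77) rose with adjusted p-values of 1.58e-05, 0.000222, 0.000171 and 7.06e-05, the first 2 detected on 1 DMSO array. Vwa1, not above background with DMSO, was at least 4-fold higher.

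The proliferin genes, placental-type hormones also made by proliferating cultured cells, were likewise high with embelin. Prl2c3 had 8.09 and 8.42 with embelin, against 5.01 and 4.49 with DMSO, was not above background with DMSO and was at least 7.77-fold higher (adjusted p = 0.000263). Prl2c2 had 7.90 and 8.19 with embelin, against 5.45 and 4.84 with DMSO, detected on 1 DMSO array (log2 change 2.90, SE 0.84, adjusted p = 0.0192), and its call was lost without either embelin array and without DMSO replicate 2 (adjusted p from 0.0581 to 0.103). Proliferin copies differ little in sequence, and their probes may not tell them apart.

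The widest gaps between arrays of a group, beside those of Saa3, Angptl4, Cxcl12, Car12, Cxcl1, Car9 and Prg4 above, were in Hilpda, Crebbp and Pank3. The lipid droplet gene Hilpda had 12.15 and 12.35 with embelin, against 10.77 and 9.26 with DMSO (log2 change 2.23, SE 0.35, adjusted p = 0.000634) and rose despite the gap. Crebbp (CBP, an acetyltransferase) had 5.82 and 7.60 with embelin, against 5.46 and 7.31 with DMSO, replicate 2 being higher in both groups (log2 change 0.32, SE 0.84, adjusted p = 0.792). Pank3 had 6.45 and 7.91 with embelin, against 6.96 and 7.98 with DMSO and did not pass (log2 change -0.29, SE 0.44, adjusted p = 0.64).

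At 24 h the same comparison, on other arrays, called 2 genes higher (0.0175%) and 4 lower (0.0349%) of 11452. The median absolute change was 0.12 at 24 h and 0.29 at 48 h. Of the 4544 genes called at 48 h, 3590 (79%) had the same sign at 24 h, against 67.1% of all genes, and Pearson's r of the changes across genes was 0.521 over all genes and 0.653 over the called ones, genes not being independent replicates. A test of the difference between the effects called 757 genes (6.61%) with a higher and 882 (7.7%) with a lower effect at 48 h. Those counts were 388 and 492 without embelin replicate 2 at 48 h, 425 and 512 without DMSO replicate 2 at 48 h, and 458 and 573 without embelin replicate 2 at 24 h. The counts at 24 h were 0 and 0 without either embelin array or DMSO replicate 2 of that time, and 1 and 7 without DMSO replicate 1.

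**Figure D5:**
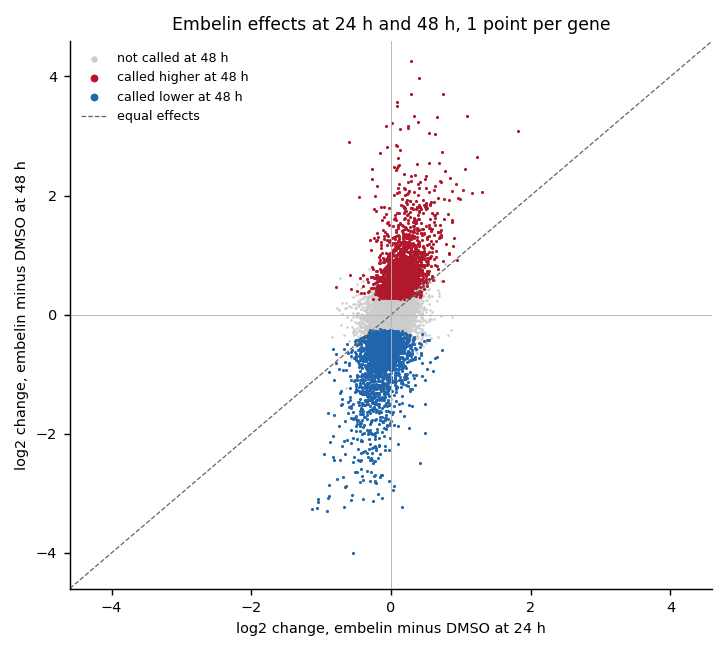
Log2 changes (embelin minus DMSO) of 11452 genes at 24 h (horizontal axis) and at 48 h (vertical axis), 1 point per gene, red and blue where called higher and lower at 48 h, with the dashed line at equal effects. The cloud is steeper than the dashed line, and 79% of the called genes have the same sign at both times.

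The test of the difference was also read by list. Of 31 G2/M genes, 26 had a lower effect at 48 h than at 24 h by the test of the difference, their median change at 24 h being -0.27. Cdc20, for instance, had 9.68 and 9.99 with embelin, against 10.36 and 10.40 with DMSO at 24 h (log2 change -0.55), and the difference between its effects was -1.93 (adjusted p = 0.00069). Of 18 acute-phase genes 10 had a higher effect at 48 h, with a median at 24 h of 0.11. Hypoxia genes had a median of 0.48 at 24 h, and 7 of 23 differed between times. Car9, for example, stood at 1.82 at 24 h, and the difference between its effects did not pass the test (difference 1.27, adjusted p = 0.21). Of 24 interferon genes 13 had a lower effect at 48 h, with a median of -0.08 at 24 h.

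The median effect on sterol genes was 0.31 at 24 h and -0.36 at 48 h, where 7 of 22 passed the test, and 11 of 22 had a lower effect at 48 h, none a higher one. Mvd had 7.88 and 8.12 with embelin, against 7.74 and 7.28 with DMSO at 24 h (0.49), and the difference between its effects was -1.99 (adjusted p = 0.0012). Hsd17b7, a sterol enzyme gene, was 1 of the 2 genes called higher at 24 h (0.71, adjusted p = 0.0322) and stood at -0.02 at 48 h. The other was Tnfsf9, a TNF-family ligand gene, which was higher at both times (0.85 at 24 h and 2.30 at 48 h, where it was detected on 1 DMSO array). The 4 genes lower at 24 h, all of them H2A genes, were lower at 48 h too by their brightest probe, H2ac20 not by the mean over its probes (0.0738, adjusted p = 0.65 in limma).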

How the data were processed

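Bead summary intensities per probe were deposited without background correction or normalization, exported with GenomeStudio 1.8.0 per the file headers (GenomeStudio 2010.2 per the labels). The deposited detection score is the complement of a detection p, read against the negative-control beads. The authors' deposited series matrix holds log2 values, which equalled the log2 intensity minus the array's 75th percentile and minus the probe's median over arrays within 0.006 in 100% of values (column medians from -0.14 to 0.09). From the intensities, background correction and quantile normalization were done with neqc of limma 3.58.1 in R 4.3.3 (offset 16). A probe was kept (16981 of 45281) where the detection p of both arrays in some group was under 0.01, and each of 11452 genes took its brightest probe. A linear model over 6 group means of 12 arrays was fitted with lmFit and eBayes, and p-values were adjusted by Benjamini-Hochberg over all genes, called under 0.05. The number of arrays, 2 a group, limits the precision. Every log2 signal in the text is on this scale, and a log2 change is embelin minus DMSO. SE is the standard error of that difference. A probe not above background on both arrays of a group is given as a bound, from the means of the normalized log2 values and, in the dim group, of the lowest signal above background on each array or the probe's own where higher.

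Gene symbols of the array were updated to RefSeq: 7774 tested genes matched by current symbol, 1912 by synonym, and 1766 kept the name of the file. Genes were named by rule: the 20 called genes that moved furthest in each direction (predicted symbols skipped), the 10 largest differences between times each way, the 10 widest gaps between arrays of a 48 h group (called or not), the cell markers, and in each list described its key members and up to 6 called members of largest change per role. Outside that rule, Arnt, Bnip3l, Ccnf, Ect2, Eno1, Gclc, Gys1, H2ac18, H2ac19, Hif1an, Hsd17b7, Kif23, Mef2d, Ndufv3, Pfkfb4, Pgam1, Pkm, Plk3, Relb, Tnfsf9 and Zmat3 were named after their values were seen. Some genes of the lists are counted but not reported here by name. Members and lists were chosen with earlier results of these data known. On simulated data with the 48 h layout over 11452 genes, 24 of 67 genes changed by 0.5 log2 units were called, 66 of 67 changed by 1 and 66 of 66 changed by 2, with 7 false among 163 calls. Only these genes were changed at 48 h there, and the noise was independent between arrays. In the data 39.7% of genes were called and arrays of a group were ordered alike, so these rates do not carry over to the calls at 48 h. Alternatives were other scalings, no background correction, the series matrix values, other probe filters and summaries, other fits, the replicate block and leaving out single arrays.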

Additional observations from a re-analysis of the deposited data

Results flagged for a closer look

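For 20 genes the effect of embelin at 48 h differed from that at 24 h by the test of the difference between effects (limma, adjusted over all genes), and these were the 10 with the largest difference each way. Values are the log2 effect at 48 h minus that at 24 h. On the higher side these were Angptl4 (3.56), Cp (3.48), Prl2c3 (3.43), Ptx3 (3.23), Rasl11a (3.20), Mmp13 (2.9997), Cxcl1 (2.93), Nos2 (2.90), Hsd11b1 (2.88) and Cxcl12 (2.86). On the lower side they were Parm1 (-3.46), Col8a2 (-3.39), Ckmt2 (-2.98), Pbk (-2.95), Usp18 (-2.92), Col24a1 (-2.92), Lama1 (-2.88), Mki67 (-2.83), Nusap1 (-2.77) and Birc5 (-2.70). Prl2c3 and Nos2 were not above background with DMSO at 48 h, nor Ckmt2 and Usp18 with embelin, so for these 4 the size is a fitted value and not a bound. The times stand on different arrays with 2 per group, and whether the arrays or the cultures contributed was not tested.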

How the results depend on the processing

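At 48 h the counts of higher genes stayed within 1.5 times 2264 under the alternatives that used all arrays, and so did those of lower genes except under array median scaling (1460). With 1 array left out, higher genes numbered 1466 to 2454 and lower genes 1473 to 2497, the highest being without embelin replicate 2 in growth medium. At 24 h, where 2 and 4 genes were called, 0 higher genes and 0 lower genes were called under array median scaling, 75th percentile scaling, the fit of only the arrays compared (1361 at an unadjusted p under 0.05) and the replicate block (1369). Without a detection filter 1 was higher and 2 lower, with the mean over probes 1 and 2, and with genes detected on every array 4 and 5. Genes at 24 h were not counted with the series matrix values, without background correction or with a trended and robust prior. With 1 array left out, 0 to 1 were higher and 0 to 7 lower at 24 h. For the difference between times, array median scaling gave 539 lower, and with 1 array left out 388 to 959 were higher and 492 to 1121 lower. With the replicate block 2346 genes were higher and 2319 lower at 48 h, and 794 and 889 for the difference. Same-numbered arrays of the groups at 24 h and 48 h deviated together with r = 0.127 to 0.243 (0.128 for embelin and DMSO at 48 h), but the labels tie a number to no shared culture or day and a group holds 2 arrays, so the numbers were not taken as pairs. When the probes of a gene were averaged, 4 genes changed sign: H2ac20 (0.0738), H3c10 (-0.15), Kif23 (-1.86) and Tpm3 (-1.32). Of 945 genes followed, 558 were called at 48 h. Of these, 386 lost the call under no alternative that tested them (437 of the 558 were tested when detection on every array was required), and 169 lost it with at least 1 array of 48 h left out. Genes near background or near the top of the scale allow only bounds or compressed changes.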
